A study of Mus musculus with 24 samples.

Results

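Krt7, Krt8, Krt18, Krt19, Krt23, Sox9, Spp1, Epcam, Cd24a and Tubb6 are 10 transcripts of bile duct epithelium and of injured liver epithelium, taken by symbol from the 24532 genes of the table of FPKM that the authors deposited, where FPKM gives fragments scaled to transcript length and to the size of the library. They were chosen with their difference between LKO and Ctrl livers already known, so their liver values are given as a description, without a test. Bulk RNA-seq libraries came from the liver, inguinal white adipose tissue (iWAT), gastrocnemius muscle (GM) and hypothalamus of C57BL/6 mice fed chow and aged 8 weeks, with 3 libraries per genotype and tissue and 24 in all. Ctrl mice were Crif1flox/flox and LKO mice were Alb-Cre;Crif1flox/flox, so both groups carried the floxed Crif1 allele and the LKO group alone carried Cre. CRIF1 is a protein of the mitochondrial ribosome that is needed to make and assemble the subunits of oxidative phosphorylation. Cre driven by the albumin promoter acts in hepatocytes and in the albumin-expressing precursors that also give rise to bile duct cells, whereas macrophages, stellate cells and endothelium of the LKO liver keep the gene.

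Keratins are the intermediate filaments of epithelia, and they assemble as pairs of a type II chain (Krt7, Krt8) with a type I chain (Krt18, Krt19, Krt23). Hepatocytes normally hold the Krt8 and Krt18 pair alone, while cholangiocytes, the lining cells of the bile ducts, add Krt7 and Krt19 and carry the transcription factor Sox9, the secreted phosphoprotein osteopontin (Spp1) and the surface glycoproteins Epcam and Cd24a. In injured liver, small duct-like cells that bear these markers multiply around the portal tracts, which is known as a ductular reaction, and hepatocytes themselves can raise keratins, Sox9 and osteopontin. In whole liver RNA, more cells of a type and more RNA per cell cannot be told apart.

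Crif1, listed under its official symbol Gadd45gip1, stood at 14.6, 12.5 and 13.6 FPKM in the Ctrl livers and at 5.40, 2.0 and 2.51 FPKM in the LKO livers. All 3 LKO livers were below all Ctrl livers, and LKO replicate 1 kept the highest level among them. Alb, the defining hepatocyte transcript, stood at 33127 to 53194 FPKM over the 6 livers, and the 12 hepatocyte markers summed to 58867 to 61857 FPKM in Ctrl and 46168 to 72493 FPKM in LKO. Liver libraries held 4.70 to 8.09 gigabases of aligned sequence, as read from their coverage and FPKM. The liver difference was broad: of 10956 genes tested with limma, 3006 (27.4%) were called, 2622 (23.9%) of them higher and 384 (3.5%) lower in LKO, where called means a fold change of at least 1.5 on log2(FPKM + 1) with a Benjamini-Hochberg adjusted p under 0.05. The median difference of all tested genes was 0.33 on that scale. After scaling each library to the median ratio of its genes the median was -0.01 and 1896 genes were called, 1071 higher and 825 lower. Leaving out Ctrl replicate 2, Ctrl replicate 3 or LKO replicate 2 gave 1804, 1806 and 1836 calls.

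All 10 transcripts were higher in every LKO liver than in any Ctrl liver, a pattern shared by 5810 of the tested liver genes (53%). Their differences in mean log2(FPKM + 1) ran from 0.66 for Epcam to 2.52 for Tubb6, with a median of 1.13. This order depends on the pseudocount of 1: with 0.1 Epcam was at 1.14, Krt7 at 1.74 in place of 0.90, Sox9 at 1.38 in place of 0.88, and Spp1 was lowest at 0.99. With median-ratio scaling the groups still did not overlap for any of the 10, and the median was 0.87. Krt7 and Epcam stayed below 1 FPKM in all Ctrl livers and met the filter on low values through the LKO livers alone.

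**Figure D1:**
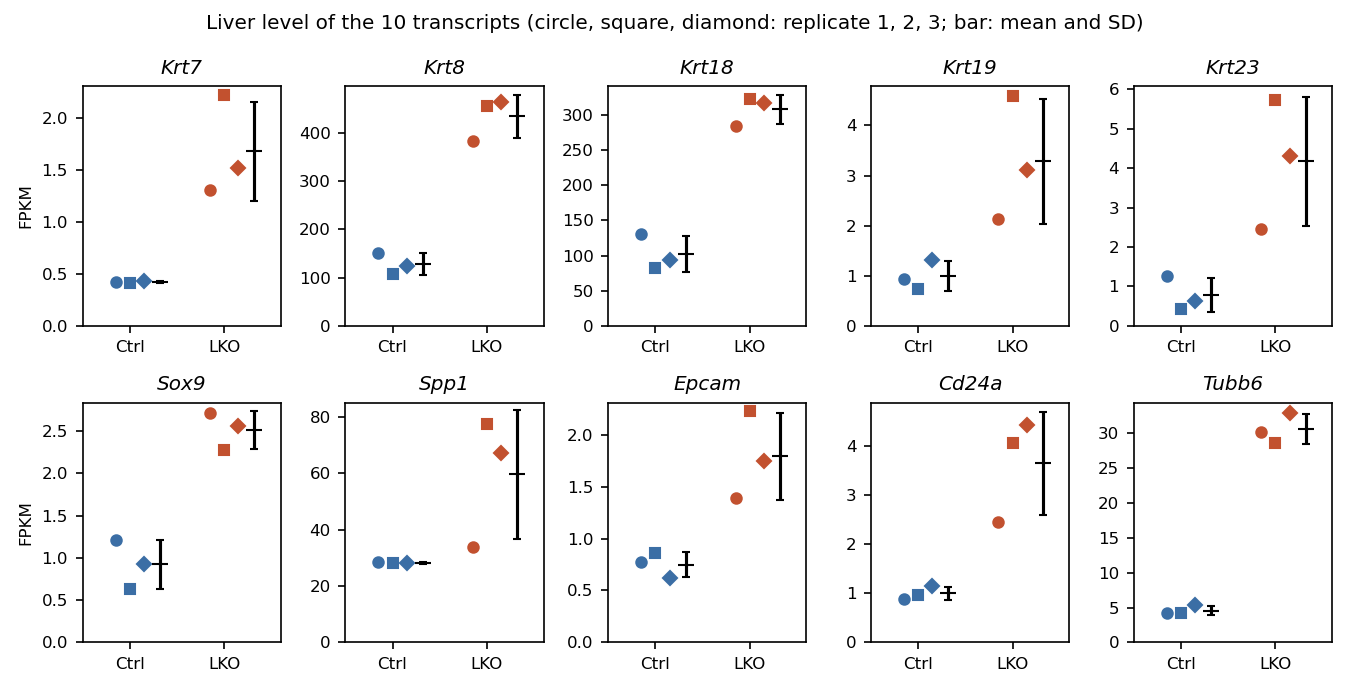
FPKM of each of the 10 transcripts in the 3 Ctrl (blue) and 3 LKO (red) livers, 1 panel per gene with its own axis from 0; circles, squares and diamonds are replicates 1, 2 and 3, and black bars give the mean and SD. The LKO points lie above the Ctrl points in every panel, closely spaced for Tubb6, Sox9 and Krt18 and widely spread for Spp1, where replicate 1 (34.0 FPKM) sits near the Ctrl livers (28.1 to 28.5 FPKM).

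Krt8 and Krt18, the keratin pair of the hepatocyte itself, were by far the most abundant of the group. Krt8 measured 152, 108 and 125 FPKM in Ctrl and 383, 454 and 463 FPKM in LKO livers. Krt18 measured 131, 82.6 and 94.4 FPKM in Ctrl and 284, 323 and 317 FPKM in LKO livers. Both were high in all LKO livers, with no overlap and little spread among them. The ratio of LKO to Ctrl means was 3.38 for Krt8 (434 ± 44.3 against 128 ± 21.8 FPKM, SD, n = 3). For Krt18 it was 3.00 (308 ± 20.7 against 103 ± 25.5 FPKM, SD, n = 3). Ranked among all genes of a library by FPKM, Krt8 moved from between the 491st and 624th place in Ctrl to between the 138th and 158th in LKO. Krt18 moved from between the 560th and 769th place to between the 221st and 236th. The chains kept nearly the same proportion: Krt8 FPKM was 1.15, 1.31 and 1.32 times Krt18 FPKM in Ctrl and 1.35, 1.41 and 1.46 times in LKO. The LKO ratios were therefore slightly above the Ctrl ratios, with no overlap.

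Krt7 and Krt19, the ductal keratins, were low in Ctrl livers, and Krt7 reached 1 FPKM and Krt19 reached 2 FPKM in LKO livers only. Krt7 measured 0.422, 0.411 and 0.434 FPKM in Ctrl and 1.3, 2.22 and 1.52 FPKM in LKO, a ratio of means of 3.98. Krt19 measured 0.940, 0.733 and 1.31 FPKM in Ctrl and 2.13, 4.59 and 3.12 FPKM in LKO, a ratio of 3.29. LKO replicate 2 was highest for both and replicate 1 lowest, while the Ctrl livers hardly differed in Krt7. Krt23, a type I keratin known to be raised in stressed liver, measured 1.27, 0.441 and 0.625 FPKM in Ctrl and 2.47, 5.74 and 4.30 FPKM in LKO. Its ratio of means was 5.36 (4.17 ± 1.64 against 0.778 ± 0.434 FPKM, SD, n = 3), and LKO replicate 2 was again highest.

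Set against the hepatocyte pair, the ductal keratins stayed a minor share. Krt19 FPKM came to 0.715% to 1.39% of Krt18 FPKM in Ctrl livers and 0.75% to 1.42% in LKO livers, so these shares overlapped. Krt7 FPKM came to 0.279% to 0.38% of Krt8 FPKM in Ctrl and 0.328% to 0.488% in LKO, which also overlapped. Of 55 keratin genes in the table, 38 were listed at 0 in every liver library. The 5 keratins named here were the only ones that reached 1 FPKM in any liver library. Summed over all 55, keratin transcripts came to 193 to 286 FPKM in Ctrl and 674 to 791 FPKM in LKO. Krt8 and Krt18 made up 98.7% to 98.8% of that sum in Ctrl and 98.2% to 98.9% in LKO.

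Krt8 (15:101996711-102004342, minus strand) and Krt18 (15:102028216-102032026, plus strand) lie head to head on mm10, with 23874 bases between their starts. Krt7 (15:101412403-101427806) lies upstream on the same chromosome, and Krt19 (11:100140811-100145926) and Krt23 (11:99477973-99493110) lie in the type I cluster on chromosome 11. No member overlapped another gene in the deposited annotation, though Krt8 and Krt18 have processed pseudogenes that could take some of their reads. The 250 bases before the RefSeq start (GRCm38.p6) of 4 keratins are printed here, each 5′ to 3′ on the strand of its gene, to show how the promoters of genes that differed together compare. They cover 15:101412153-101412402 for Krt7, 15:102004343-102004592 for Krt8, 15:102027966-102028215 for Krt18 and 11:99493121-99493370 for Krt23. Capitals mark matches, on either strand, to the motifs searched.
Krt7: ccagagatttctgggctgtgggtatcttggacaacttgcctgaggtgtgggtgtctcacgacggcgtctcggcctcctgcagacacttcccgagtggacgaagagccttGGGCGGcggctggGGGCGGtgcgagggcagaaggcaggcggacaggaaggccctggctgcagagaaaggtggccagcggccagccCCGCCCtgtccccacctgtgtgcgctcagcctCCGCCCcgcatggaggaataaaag
Krt8: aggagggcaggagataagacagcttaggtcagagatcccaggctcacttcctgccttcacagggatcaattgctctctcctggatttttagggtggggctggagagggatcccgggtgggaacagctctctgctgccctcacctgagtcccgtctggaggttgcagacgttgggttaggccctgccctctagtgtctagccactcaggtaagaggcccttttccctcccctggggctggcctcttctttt
Krt18: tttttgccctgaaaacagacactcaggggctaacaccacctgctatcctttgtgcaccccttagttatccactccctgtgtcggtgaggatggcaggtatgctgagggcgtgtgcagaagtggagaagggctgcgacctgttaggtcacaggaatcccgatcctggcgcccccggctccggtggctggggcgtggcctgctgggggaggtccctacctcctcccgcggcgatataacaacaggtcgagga
Krt23: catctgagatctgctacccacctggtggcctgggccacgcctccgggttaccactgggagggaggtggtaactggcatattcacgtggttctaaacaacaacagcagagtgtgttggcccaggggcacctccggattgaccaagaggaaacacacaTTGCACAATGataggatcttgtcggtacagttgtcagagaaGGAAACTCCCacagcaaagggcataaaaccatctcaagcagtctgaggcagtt
In all, 9 short motifs were searched on both strands in these windows: AP-1 (TGANTCA), TEAD (GGAATG), an amino acid response element (TGATGNAA), C/EBP (TTGCNNAA), SOX (ACAATG), the TATA box (TATAAA), the GC box (GGGCGG), ETS (CCGGAAG) and the longer NF-kB motif. Krt7 held the GC box 4 times, 141, 128, 56 and 24 bases before its start, a motif found in 32.7% of 32841 RefSeq promoter windows of that length. Krt23 held a C/EBP match 94 bases before its start, which overlaps a SOX match at 90 bases, and an NF-kB match on the other strand at 53 bases. Those 3 motifs occurred in 9.6%, 10.7% and 0.4% of all windows. The Krt8 and Krt18 windows held none of the 9 motifs. RefSeq windows were matched for 6 of the 10 genes, with 7 starts. Among the remaining starts, the first of Spp1 held a TATA box and an ETS match, the second a C/EBP match, and Epcam held a GC box. Krt19, Sox9, Cd24a and Tubb6 had no matched window.

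Sox9, the transcription factor of cholangiocytes and of hepatocytes that take on duct features, measured 1.21, 0.633 and 0.929 FPKM in Ctrl and 2.71, 2.27 and 2.55 FPKM in LKO livers. The LKO livers lay close together, and replicate 1, the lowest for most of the group, was the highest here. The ratio of means was 2.71 (2.51 ± 0.222 against 0.925 ± 0.291 FPKM, SD, n = 3).

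Spp1, which encodes the secreted matrix protein osteopontin, measured 28.5, 28.1 and 28.2 FPKM in Ctrl and 34.0, 77.6 and 67.4 FPKM in LKO livers. The Ctrl livers were almost equal, and LKO replicate 1 lay only slightly above them while the other LKO livers were far higher. The ratio of means was 2.11 (59.7 ± 22.8 against 28.2 ± 0.211 FPKM, SD, n = 3). Osteopontin is made by activated macrophages and stellate cells as well as by duct cells, and markers of both moved in the same livers. All 11 tested macrophage markers of 11 measured were called higher, 10 of them with median-ratio scaling, though Trem2 and Gpnmb were under 1 FPKM in every Ctrl liver and met the filter through the LKO livers alone, and the sum of the list was 160 to 170 FPKM in Ctrl and 386 to 622 FPKM in LKO. All 11 tested stellate and fibroblast markers of 13 measured were called higher, with sums of 79.7 to 86.4 and 209 to 243 FPKM. That count was 7 with median-ratio scaling and 7 without Ctrl replicate 2, and 8 without any 1 of Ctrl replicate 1, LKO replicate 2 and LKO replicate 3. No marker of either list was at 0 in all livers. Their part in the Spp1 difference was not tested.

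Epcam, an adhesion molecule of simple epithelia that hepatocytes lack, measured 0.774, 0.857 and 0.618 FPKM in Ctrl and 1.39, 2.23 and 1.75 FPKM in LKO livers. Its ratio of means was 2.39. Cd24a, a small glycoprotein of progenitor, epithelial and blood cells, measured 0.874, 0.966 and 1.15 FPKM in Ctrl and 2.45, 4.05 and 4.42 FPKM in LKO livers. Its ratio of means was 3.65 (3.64 ± 1.05 against 0.997 ± 0.141 FPKM, SD, n = 3), and LKO replicate 1 was again nearest to the Ctrl livers. Neutrophils also carry Cd24a, and the 2 tested of 7 neutrophil markers, S100a8 and S100a9, were called higher, S100a8 having met the filter through the LKO livers alone, with list sums of 1.09 to 1.72 FPKM in Ctrl and 7.76 to 9.97 FPKM in LKO. No neutrophil marker was at 0 in all livers. Ly6g and Mpo were at 0 in every Ctrl liver, though, and reached at most 0.0445 and 0.0502 FPKM in LKO. Mean FPKM in Ctrl and LKO was 0.0649 and 0.0198 for Elane, 0.137 and 0.408 for Retnlg, and 0.0444 and 0.163 for Cxcr2. The part of neutrophils in the Cd24a difference was not tested.

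Tubb6, a beta tubulin that is scarce in resting liver, showed the widest difference of the 10. It measured 4.15, 4.18 and 5.31 FPKM in Ctrl and 30.3, 28.6 and 33.0 FPKM in LKO livers. The LKO livers were alike and far above the Ctrl livers. The ratio of means was 6.73 (30.6 ± 2.2 against 4.55 ± 0.658 FPKM, SD, n = 3). By FPKM rank, Tubb6 moved from between the 6132nd and 6880th gene of a Ctrl liver to between the 1945th and 2251st of an LKO liver.

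**Figure D2:**
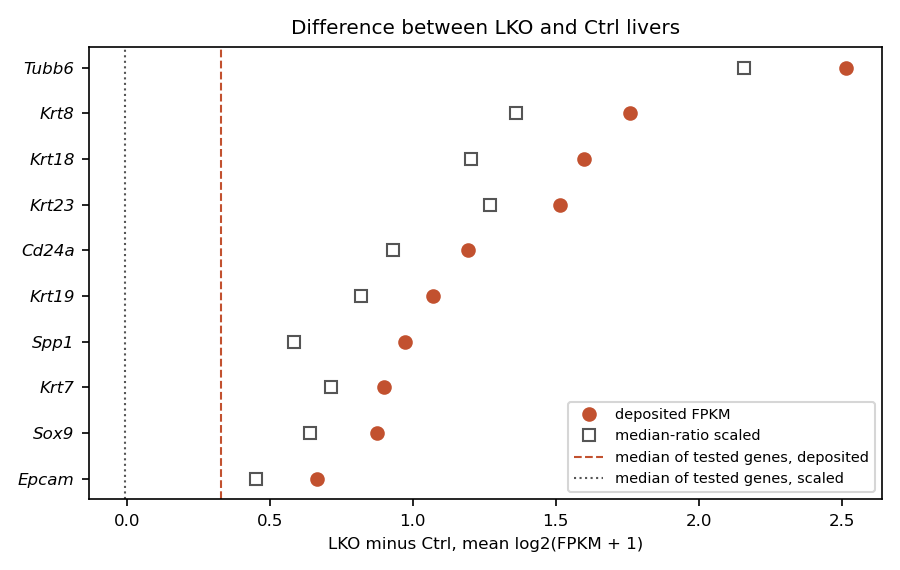
LKO minus Ctrl difference in mean log2(FPKM + 1) of the 10 transcripts in liver, from the deposited FPKM (filled circles) and after median-ratio scaling (open squares); vertical lines give the median of the 10956 tested genes on each scale (0.33 dashed, -0.01 dotted). Every transcript lies right of its line on both scales, with Tubb6 at 2.52 and 2.16 and Epcam at 0.66 and 0.45.

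The 10 transcripts did not follow 1 order among the LKO livers. Replicate 1 was the lowest LKO liver for 8 of them and replicate 2 for Sox9 and Tubb6. Replicate 2 was the highest for 6, replicate 3 for Krt8, Cd24a and Tubb6, and replicate 1 for Sox9. Replicate 1 was also the LKO liver with the highest Crif1 (5.40 FPKM) and the smallest median-ratio size factor (1.00 against 1.16 and 1.31 for the others, and 0.86 to 0.89 in Ctrl), and whether either bears on its lower values was not tested.

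The genes whose log2(FPKM + 1) followed the mean of the 10 most closely over the 6 liver libraries were Tmem140, Htra3, Ptgr1, Cox6b2 and Tmcc3, with Pearson r between 0.998 and 0.999. Tmem140, for instance, measured 8.46, 6.96 and 7.89 FPKM in Ctrl and 15.2, 19.8 and 18.4 FPKM in LKO. These r values rest on 6 points that fall into 2 genotype groups, and 1445 of the 10946 other tested genes had r over 0.95. They are a description of shared level, and carry no test.

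Related genes were then counted by role. These lists too were drawn up with results of the same livers known, so their counts and p-values are not independent evidence. The share of all tested liver genes was 23.9% called higher and 3.5% called lower. Of the 2622 genes called higher, 401 were under 1 FPKM in every Ctrl liver, so that they met the filter through the LKO livers alone and had to differ. Such genes are given by their FPKM with no p, and a list's count that holds them is a description and no support. Of 26 other bile duct markers, 11 were high enough to test and 6 were called higher, none lower, and the median difference of all 26 was 0.36. Tm4sf4, a tetraspan membrane protein of duct and regenerating liver cells, measured 34.0, 35.6 and 29.1 FPKM in Ctrl and 116, 167 and 193 FPKM in LKO (log2 difference 2.21 ± 0.19 SE, limma adjusted p = 0.00079). The adhesion molecule Alcam was 1.02 ± 0.14 higher (adjusted p = 0.0028). The remaining 4, the tetraspanin Tspan8, the epithelial transcription factor Elf3, Cldn7 and Bicc1, were under 1 FPKM in every Ctrl liver. Tspan8 measured 0.505, 0.442 and 0.672 FPKM in Ctrl and 2.62, 4.03 and 2.76 FPKM in LKO. Elf3 measured 0.364, 0.287 and 0.241 FPKM in Ctrl and 1.18, 1.49 and 2.31 FPKM in LKO. Cldn7 measured 0.357, 0.165 and 0.136 FPKM in Ctrl and 1.05, 1.25 and 1.25 FPKM in LKO, and Bicc1 measured 0.619, 0.678 and 0.693 FPKM in Ctrl and 1.48, 2.06 and 2.17 FPKM in LKO.

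Cftr and Sctr, of the transport and receptor genes in that list, stayed close to 0. Cftr, the chloride channel of duct secretion, lay at 0.0115 to 0.0295 FPKM in Ctrl and 0.0272 to 0.06 FPKM in LKO. Sctr, the secretin receptor, lay at 0 to 0.0325 FPKM in Ctrl and 0.0482 to 0.239 FPKM in LKO. Cftr and Sctr were too low to be tested. Other transport genes of the list were not all low. Aqp1 had means of 41.4 FPKM in Ctrl and 63.3 FPKM in LKO, with overlap, and was not called (limma adjusted p = 0.18). Atp1b1 had means of 23.0 and 28.5 FPKM, without overlap, and was not called (adjusted p = 0.12). Slc5a1, too low to test, had means of 0.299 and 0.413 FPKM.

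Of 24 other keratin and desmosome genes 10 were tested and 6 called higher, with a median of 0.11 over all 24, 14 of which were too low to test. Ppl, the cytolinker periplakin that ties keratin to desmosomes, measured 1.42, 1.21 and 2.09 FPKM in Ctrl and 8.27, 14.6 and 9.12 FPKM in LKO (2.16 ± 0.23, adjusted p = 0.0014). Vim, the intermediate filament of mesenchymal cells and of dedifferentiating epithelium, was 1.64 ± 0.11 higher (adjusted p = 0.00034), and the desmosomal cadherin Dsc2 was 1.02 ± 0.16 higher (adjusted p = 0.0045). The cytolinker Plec was 0.93 ± 0.18 higher (adjusted p = 0.0092), and this call was lost with median-ratio scaling, where its log2 difference was 0.57 and the list kept 3 calls, and with ordinary variances (adjusted p = 0.053).

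Tubb6 was not alone among the tubulins: of 16 other tubulin genes 11 were tested and 8 called higher, with a median of 0.46 over all 16. Tuba8, an alpha tubulin, measured 0.927, 1.13 and 1.61 FPKM in Ctrl and 14.3, 16.6 and 24.2 FPKM in LKO (3.10 ± 0.21, adjusted p = 0.00031). Tubb2a was 1.06 ± 0.14 higher (adjusted p = 0.0023), Tuba1b 1.05 ± 0.15 (adjusted p = 0.0036) and Tubb4b 1.03 ± 0.10 (adjusted p = 0.0012). With median-ratio scaling the list had 5 calls higher and 1 lower. Reads of such similar genes can be shared between them, so the split among tubulins is uncertain.

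The Notch pathway, which directs the duct fate, had 5 of 10 tested genes called higher out of 16 measured, with a median of 0.47. Hes1, its best known target, measured 3.63, 1.65 and 2.65 FPKM in Ctrl and 14.7, 10.6 and 13.5 FPKM in LKO (1.96 ± 0.22, adjusted p = 0.0016). The receptor Notch1 was 0.98 ± 0.13 higher (adjusted p = 0.0025). The other 3, Sox4, a transcription factor of early ducts, the feedback inhibitor Nrarp and the ligand Jag1, were under 1 FPKM in every Ctrl liver. Sox4 measured 0.396, 0.405 and 0.450 FPKM in Ctrl and 1.85, 1.97 and 3.93 FPKM in LKO. Nrarp measured 0.557, 0.407 and 0.398 FPKM in Ctrl and 1.23, 1.27 and 1.57 FPKM in LKO, and Jag1 measured 0.917, 0.782 and 0.716 FPKM in Ctrl and 1.23, 1.96 and 2.31 FPKM in LKO. With median-ratio scaling neither was called and the list had 3 calls, and Jag1 was not called either with ordinary variances or without any 1 of the libraries except LKO replicate 1. Notch2, the receptor most tied to duct formation, was 0.13 ± 0.12 higher (adjusted p = 0.37) and -0.20 with that scaling.

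Among 21 genes of the YAP and TEAD pathway, which responds to cell shape and injury, 17 were tested and 7 called higher, with a median of 0.44. The coactivator Wwtr1 (TAZ) measured 3.28, 2.72 and 3.22 FPKM in Ctrl and 5.17, 9.97 and 13.2 FPKM in LKO (1.28 ± 0.29, adjusted p = 0.014), and its partner Yap1 was 0.29 ± 0.11 higher (adjusted p = 0.069; -0.09 with median-ratio scaling). The target Ctgf was 1.23 ± 0.11 higher (adjusted p = 0.00093), whereas the target Cyr61 overlapped between groups (0.66 ± 0.27, adjusted p = 0.080; called from the TPM, without Ctrl replicate 1, without LKO replicate 1 or by the unadjusted p, with adjusted p from 0.015 to 0.29 over the alternatives). Ajuba, a LIM protein that restrains the Hippo kinases, was 1.3 ± 0.32 higher (adjusted p = 0.019) and the receptor kinase Axl 1.06 ± 0.16 higher (adjusted p = 0.0036). The list kept 4 calls with median-ratio scaling, with ordinary variances or without LKO replicate 2. Ajuba (adjusted p up to 0.087) and Wwtr1 (up to 0.073) lost their calls with ordinary variances and without LKO replicate 2 or Ctrl replicate 2, Ajuba also without Ctrl replicate 1 or 3, and both kept them with median-ratio scaling.

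Partners of osteopontin and Cd24a were also counted: 8 of 12 receptors were tested and 4 called higher, with a median of 0.53. Cd44, a hyaluronan and osteopontin receptor of progenitor and immune cells, measured 0.902, 0.938 and 1.07 FPKM in Ctrl and 3.06, 4.11 and 4.75 FPKM in LKO (1.32 ± 0.15, adjusted p = 0.0015). The integrins Itga9 (0.95 ± 0.15, adjusted p = 0.0048) and Itgb5 (0.67 ± 0.13, adjusted p = 0.0082) were called as well. The 4th call, the integrin Itgb3, was under 1 FPKM in every Ctrl liver and measured 0.519, 0.842 and 0.835 FPKM in Ctrl and 2.03, 1.80 and 2.21 FPKM in LKO. Itgb5 fell short of the fold limit with median-ratio scaling (0.28) and without LKO replicate 3 (0.57).

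Of 21 injury and progenitor signals 11 were tested, 5 called higher and 1 lower, with a median of 0.10. Tnfrsf12a, the receptor of the TWEAK cytokine that drives duct cell growth, measured 4.55, 6.68 and 4.88 FPKM in Ctrl and 34.8, 84.8 and 100.2 FPKM in LKO (3.43 ± 0.37, adjusted p = 0.0015). Areg, an epidermal growth factor receptor ligand, was at or near 0 in Ctrl and at 1.62, 11.7 and 23.5 FPKM in LKO. The oncostatin M receptor Osmr measured 0.472, 0.480 and 0.305 FPKM in Ctrl and 1.49, 1.45 and 1.52 FPKM in LKO. Both were under 1 FPKM in every Ctrl liver. The growth factor Hgf was 0.96 ± 0.15 higher (adjusted p = 0.0047). Egfr, named because it was the only call in the lower direction, measured 78.6, 113 and 119 FPKM in Ctrl and 82.6, 62.3 and 55.4 FPKM in LKO. Its groups overlapped, and its difference of -0.62 ± 0.21 (adjusted p = 0.044) did not hold as a call with the replicate block (adjusted p = 0.076), from the TPM, without the filter, with ordinary variances or without Ctrl replicate 2, Ctrl replicate 3, LKO replicate 2 or LKO replicate 3 (adjusted p up to 0.14). The list kept 3 calls with ordinary variances, without Ctrl replicate 2 or without LKO replicate 2.

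Proteins found with keratin in the aggregates of injured hepatocytes had 6 of 10 called higher and 1 lower, with a median of 0.75. Sqstm1, the ubiquitin-binding adaptor p62, measured 211, 204 and 194 FPKM in Ctrl and 350, 716 and 1147 FPKM in LKO (1.70 ± 0.38, adjusted p = 0.014, up to 0.077). Tgm2, a crosslinking transglutaminase, was 1.34 ± 0.14 higher (adjusted p = 0.0014). The ubiquitin-like Ubd, under 1 FPKM in every Ctrl liver, measured 0.159, 0.310 and 0.535 FPKM in Ctrl and 3.53, 2.18 and 1.45 FPKM in LKO. Hspb1, a small heat shock protein, overlapped between groups, with LKO replicate 1 at 24.6 FPKM against 25.4 FPKM in Ctrl replicate 2 (1.54 ± 0.52, adjusted p = 0.047, up to 0.15). Hspa1b, named as the only lower call of the list, was at -0.85 (adjusted p = 0.0052). With median-ratio scaling the list had 3 calls higher and 3 lower.

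**Figure D3:**
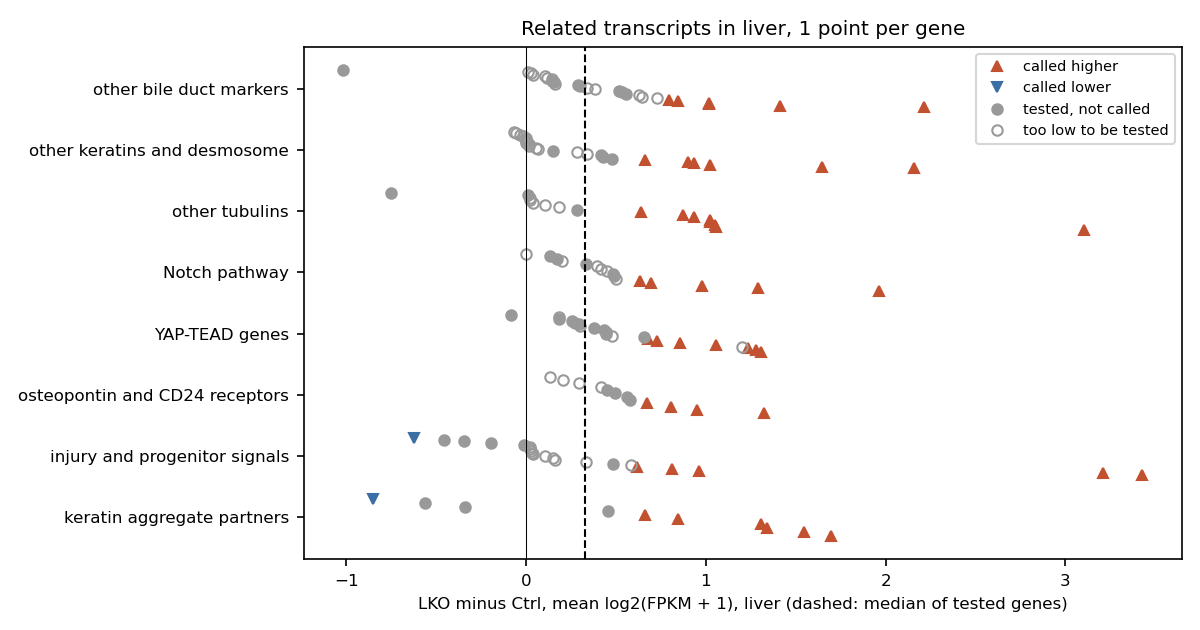
LKO minus Ctrl difference in mean log2(FPKM + 1) in liver for each gene of 8 related lists, 1 row per list and 1 point per gene; red triangles were called higher, blue triangles lower, grey discs tested but not called, and open circles too low to test, with the median of tested genes (0.33) dashed. Red triangles appear in every row, from 4 in the row of osteopontin and CD24 receptors to 8 among the tubulins, and the only blue ones are Egfr and Hspa1b.

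Markers of further cell types were read in the same livers. Mesothelium, which shares Krt7, Krt8, Krt18 and Krt19, had summed markers of 1.93 to 2.66 FPKM in Ctrl and 1.68 to 3.22 FPKM in LKO, all 8 measured being too low to test and none at 0 in all livers. Exocrine pancreas markers were at 0 in all livers for 8 of 9 genes. The remaining gene, Cela2a, was too low to test, at 0.836, 0.590 and 0.513 FPKM in Ctrl and 0.314, 0.438 and 0 FPKM in LKO. Csn2, Csn1s1, Wap, Lalba and Krt14 of the mammary and skin list were at 0 in all livers as well. That list still summed to 65.0 to 79.0 FPKM in Ctrl and 65.1 to 85.2 FPKM in LKO. Cldn3 (46.0 to 64.9 FPKM) and Prlr (10.2 to 22.3 FPKM), its 2 tested genes, were not called. Endothelial markers had 3 of 6 called higher, with sums of 79.0 to 80.2 FPKM in Ctrl and 89.8 to 149 FPKM in LKO. That count was 1 with median-ratio scaling, 5 without LKO replicate 1 and 2 without any 1 of the other libraries. Among 12 hepatocyte markers 1, Cyp3a11, was called higher and 2, Serpina1a and Tdo2, were called lower, and each of these calls was lost under 1 or more of the alternatives. No B cell marker was called of 1 tested out of 6, and no erythroid marker of 3 tested out of 7, against 1 without LKO replicate 1. Hbb-bt, an adult beta globin of red cells that did not meet the filter, measured 0.00813, 0 and 0 FPKM in Ctrl and 22.5, 36.5 and 0.525 FPKM in LKO. The rest of the list did not follow it. Hbb-bs measured 101, 106 and 190 FPKM in Ctrl and 83.6, 143 and 142 FPKM in LKO, which overlapped. Hba-a1 overlapped as well, and Alas2 had a log2 difference of -0.86 and was not called. How reads were split between Hbb-bs and Hbb-bt was not tested. Both tested adipocyte markers of 5 were called higher, with list sums of 12.9 to 14.4 FPKM in Ctrl and 33.4 to 35.6 FPKM in LKO. Adipoq, Plin1 and Lep were too low to test, and each overlapped between groups. Their means were 0.145, 0.0190 and 0.00425 FPKM in Ctrl and 0.210, 0.0323 and 0 FPKM in LKO. Fabp4, a fatty acid carrier, lost its call with median-ratio scaling, and Cidec, a lipid droplet protein, measured 0.565, 1.10 and 0.704 FPKM in Ctrl and 5.06, 12.4 and 13.8 FPKM in LKO. No muscle marker of 4 tested out of 5 was called, against 3 without LKO replicate 1.

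In the other tissues, which played no part in choosing the 10, none was called (limma, same criterion), and 0, 0 and 3 genes in all were called in iWAT, GM and hypothalamus (0%, 0% and 0.0217%). In iWAT 4 of the 10 were high enough to test, and 1 had an unadjusted p under 0.05, against 15% of all tested genes. In GM it was 1 of 3 tested, against 6.83% of genes, and in hypothalamus 2 of 5, against 3.72%. Crif1 itself lay between 10.4 and 16.0 FPKM in iWAT, between 12.7 and 17.4 FPKM in GM and between 23.2 and 28.0 FPKM in hypothalamus, with overlapping genotypes in each.

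**Figure D4:**
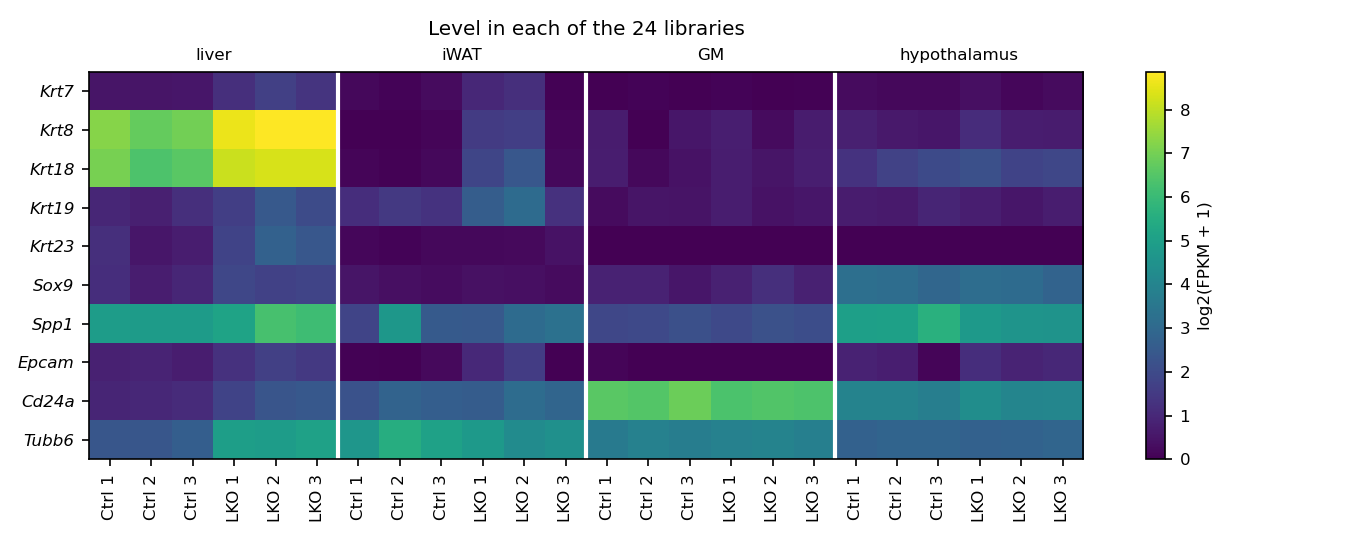
Level of the 10 transcripts, as log2(FPKM + 1) by colour (dark for 0, yellow for the highest), in each of the 24 libraries, grouped by tissue (GM, gastrocnemius muscle) and genotype. Krt8 and Krt18 are bright in liver alone, Cd24a in GM, Sox9 is highest in hypothalamus, and Krt7, Krt8, Krt18, Krt19 and Epcam are brighter in LKO replicates 1 and 2 of iWAT than in the other iWAT libraries.

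The 10 differed widely in which tissue carried them. Krt8 was above 100 FPKM in liver of both genotypes and at most 2.11 FPKM elsewhere, and Krt18 at most 4.26 FPKM elsewhere. Krt23 was listed at 0 in every GM and hypothalamus library. Cd24a ran the other way, at 99.8 ± 14.4 FPKM in Ctrl GM, 14.0 ± 1.02 in Ctrl hypothalamus, 4.98 ± 1.20 in Ctrl iWAT and 0.997 ± 0.141 in Ctrl liver (SD, n = 3), each tissue clear of the next. Its LKO liver level of 3.64 FPKM still overlapped that of Ctrl iWAT, the next above it. Sox9 was highest in hypothalamus, at 7.70 ± 0.967 FPKM in Ctrl and 7.17 ± 1.05 FPKM in LKO (SD, n = 3), which overlapped, and the LKO liver at 2.51 FPKM came next without overlap. Tubb6 was lowest in Ctrl liver, at 4.55 FPKM, and its LKO liver level of 30.6 FPKM overlapped that of Ctrl iWAT, the highest group at 33.9 ± 10.6 FPKM. Spp1 in LKO liver overlapped Ctrl hypothalamus (37.2 ± 10.2 FPKM), which in turn lay above Ctrl liver without overlap.

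In iWAT 5 of the members, Krt7, Krt8, Krt18, Krt19 and Epcam, were higher in LKO replicates 1 and 2 than in every other library. This split was seen in the values themselves, and the share of all iWAT genes that show it was not counted. Krt8 was 0, 0 and 0.0966 FPKM in Ctrl and 1.91, 2.11 and 0.0974 FPKM in LKO. Krt18 was 0.0892, 0.0415 and 0.151 FPKM in Ctrl and 2.63, 4.26 and 0.132 FPKM in LKO. Epcam was 0.0336, 0 and 0.18 FPKM in Ctrl and 1.01, 1.96 and 0 FPKM in LKO. In all 3 genes LKO replicate 3 lay with the Ctrl libraries. Krt19, high enough to test, was 1.25, 1.77 and 1.47 FPKM in Ctrl and 5.08, 7.62 and 1.40 FPKM in LKO, a difference of 1.01 ± 0.44 (SE) that did not pass (limma adjusted p = 0.35). Of the 10 mammary and skin markers 3 were at 0 in every iWAT library, and 4 of the other 7 (Krt14, Krt5, Elf5 and Lalba) were likewise higher in LKO replicates 1 and 2 than in every other library. Krt14 was 0.22, 0.455 and 0 FPKM in LKO and 0 in Ctrl, and Krt5 was 0.277, 0.46 and 0 FPKM in LKO and 0, 0 and 0.0798 FPKM in Ctrl. The mammary factor Elf5 was 0.186, 0.347 and 0.0504 FPKM in LKO and at most 0.0349 FPKM in Ctrl. Lalba was 0.151, 0.0864 and 0 FPKM in LKO and 0.0692, 0.0838 and 0 FPKM in Ctrl, so LKO replicate 2 lay barely above Ctrl replicate 2. Cldn3, Prlr and Krt10 did not follow this pattern. Krt10 was 1.83, 1.95 and 1.49 FPKM in Ctrl and 1.5, 1.13 and 1.41 FPKM in LKO, and Cldn3 was 1.13, 0.866 and 0.864 FPKM in Ctrl and 0.983, 1.39 and 0.703 FPKM in LKO. Over the whole mammary and skin list of 10 genes the sum was 3.47 to 4.08 FPKM in Ctrl and 4.40, 5.62 and 3.54 FPKM in LKO, and the milk genes Csn2, Csn1s1 and Wap were at 0 in every iWAT library. For these libraries the labels give neither the sex of the mice nor how the fat pad was dissected, and the part of other epithelial tissue in these values was not tested.

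**Figure D5:**
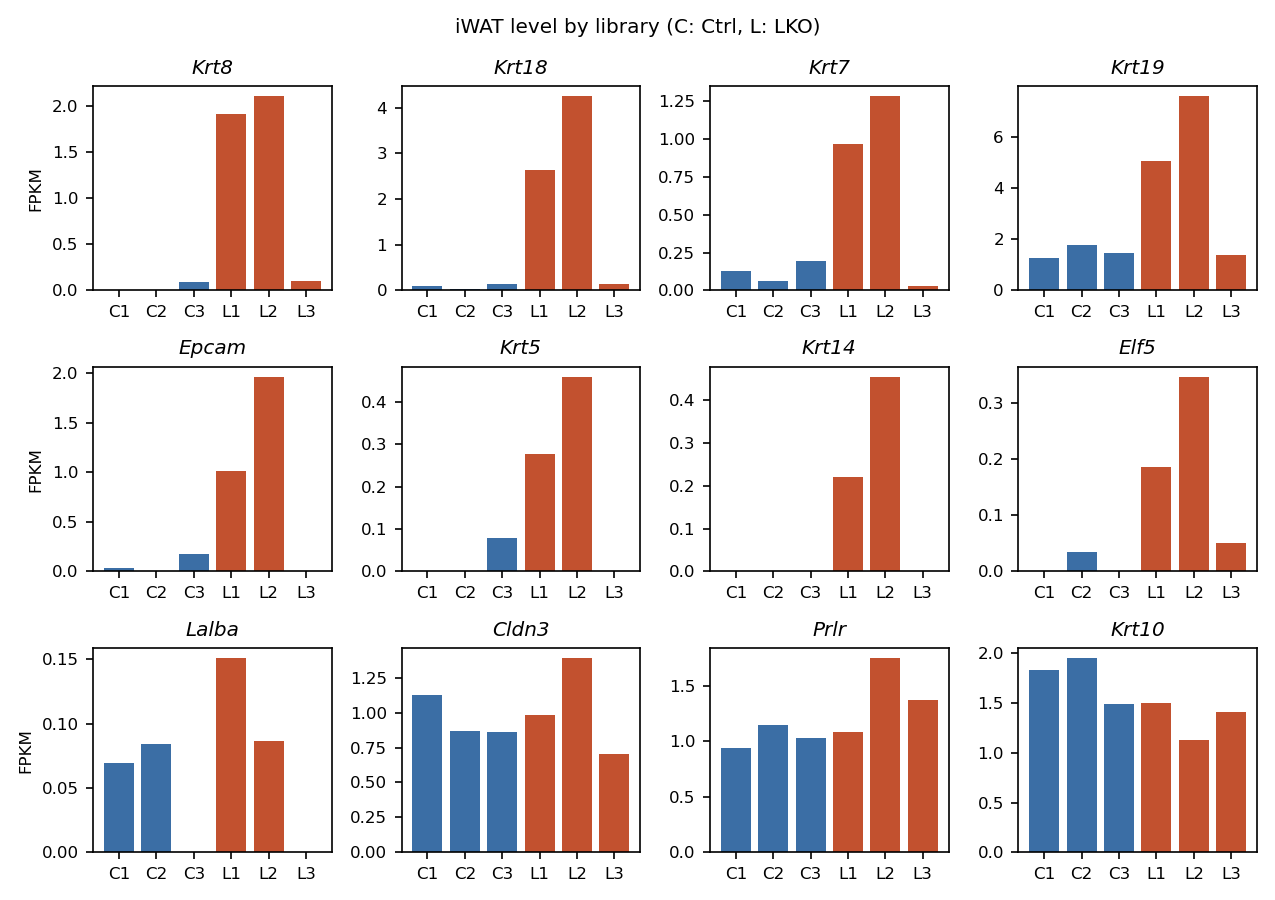
FPKM in the 6 iWAT libraries (C1 to C3 Ctrl in blue, L1 to L3 LKO in red) of 5 members, Krt8, Krt18, Krt7, Krt19 and Epcam, and of the 7 mammary and skin markers above 0 in any of them, each panel with its own axis from 0. The bars of L1 and L2 are the tallest in the panels of the 5 members and of Krt5, Krt14, Elf5 and Lalba, and they are not in those of Cldn3, Prlr and Krt10.

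Tubb6, Cd24a and Spp1 showed no such split in iWAT. Tubb6 was 23.9, 45.1 and 32.6 FPKM in Ctrl and 26.6, 18.6 and 20.8 FPKM in LKO, which overlapped (-0.57 ± 0.24, adjusted p = 0.33). Cd24a was 3.66 to 6.01 FPKM in Ctrl and 5.03 to 7.79 FPKM in LKO (0.32 ± 0.19, adjusted p = 0.49). Spp1 was 2.56, 24.7 and 4.70 FPKM in Ctrl and 4.55, 7.50 and 8.77 FPKM in LKO (-0.06 ± 0.70, adjusted p = 0.98). The sign for Spp1 turned without Ctrl replicate 2 (0.78) or without LKO replicate 1 (0.18). Ctrl replicate 2, where Spp1 was far the highest, also had the highest summed macrophage markers of iWAT, at 1759 FPKM against 643 to 1056 FPKM in the other libraries, none of the 11 being at 0 in all of them, and their part was not tested.

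In GM, Cd24a was 95.9, 87.9 and 116 FPKM in Ctrl and 81.1, 85.8 and 82.6 FPKM in LKO. All LKO values were below all Ctrl values, though by little (-0.25 ± 0.10, adjusted p = 0.70), a separation found in 7.2% of GM genes. Spp1 was 2.70 to 3.49 FPKM in Ctrl and 2.85 to 3.54 FPKM in LKO (0.08 ± 0.11, adjusted p = 0.96). Tubb6 was 11.7 to 13.7 FPKM in Ctrl and 13.3 to 14.7 FPKM in LKO (0.14 ± 0.08, adjusted p = 0.83). Krt8, too low to test there, was 0.578, 0.0237 and 0.46 FPKM in Ctrl and 0.69, 0.195 and 0.586 FPKM in LKO. Liver transcripts varied among the same libraries: Alb was 167, 13.7 and 125 FPKM in Ctrl and 65.6, 8.32 and 22.8 FPKM in LKO, and the 12 hepatocyte markers summed to 20.2 to 264 FPKM in Ctrl and 12.4 to 97.0 FPKM in LKO, none at 0 in all of them. Both genes were lowest in replicate 2 of each genotype, and the part of liver RNA in the muscle keratin values was not tested.

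In hypothalamus, Spp1 was 30.8, 31.8 and 48.9 FPKM in Ctrl and 26.7, 23.2 and 22.4 FPKM in LKO. All LKO values were below all Ctrl values, opposite to liver, and the difference did not pass (-0.58 ± 0.17, adjusted p = 0.999), with 4.97% of tested genes separated in that direction. Cd24a was 14.7, 14.5 and 12.8 FPKM in Ctrl and 19.2, 15.4 and 15.8 FPKM in LKO, higher without overlap (0.24 ± 0.10, adjusted p = 0.999), as were 4.74% of tested genes. Krt18 (0.26 ± 0.18), Sox9 (-0.09 ± 0.12) and Tubb6 (-0.00 ± 0.07) overlapped between genotypes, each with a limma adjusted p of 0.999.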

How the data were processed

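Bulk RNA-seq was read from 24 libraries (TruSeq RNA Library Prep Kit v2, which does not mark strand). The authors deposited FPKM per gene in 1 joined table and, for each library, mean coverage, FPKM and TPM. Coverage was deposited without a depth correction, the authors set FPKM relative to transcript length and library size, TPM were deposited with a fixed total, and no further scaling is stated. The submitters' processing notes name HISAT2 2.0.5, Bowtie2 2.2.6, STAR 2.5.2b and StringTie 1.3.3b on mm10. Depth was 4.45 to 8.09 gigabases, and without counts no counting interval was used.

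Separate limma fits per tissue (limma 3.58.1, R 4.3.3, lmFit with eBayes and trend) used log2(FPKM + 1), whose pseudocount of 1 understates changes of low genes, and genes that reached 1 FPKM in 3 or more of the tissue's 6 libraries. A call needed a 1.5-fold change together with an adjusted p (Benjamini-Hochberg, all genes tested in the tissue) under 0.05. The scripts were tested on simulated data. The 10 members and all lists were chosen with earlier results of these data known. Genes named in a list were the up to 4 called ones with the largest change and some written down by name. Alternatives were a pseudocount of 0.1, no filter, deposited TPM, median-ratio scaling, ordinary variances, a fold limit of 2, unadjusted p, a replicate block and each library left out. The sources used here do not say whether tissues with 1 replicate number share a mouse, and p-values measure the spread between these libraries. A few items withheld for evaluation are not reported here.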

Additional observations from a re-analysis of the deposited data

Results flagged for a closer look

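Spp1 was higher in every LKO liver than in any Ctrl liver (0.97 on the log2 scale) and lower in every LKO hypothalamus than in any Ctrl one (-0.58), so the effects differed by 1.55. Cd24a was higher in every LKO liver (1.19) and lower in every LKO GM library (-0.25), a gap of 1.44. Cd24a was also lower in GM (-0.25) and higher in every LKO hypothalamus (0.24), a gap of -0.49. They stand here because the libraries of one tissue all moved one way and those of the other the opposite way. The differences between tissues were not tested, and the liver values had served to choose both genes.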

How the results depend on the processing

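The count of liver genes called was 1896 with median-ratio scaling, 1499 with ordinary variances, 1067 with a fold limit of 2 and 1804 (without Ctrl replicate 2) to 4325 (without LKO replicate 1) with a library left out, against 3006. The median difference of the 10 members in liver was 1.67 with a pseudocount of 0.1 and 1.45 from the TPM, and 1.02 to 1.36 with a library left out, against 1.13. With median-ratio scaling 3 keratin and desmosome, 3 Notch and 4 YAP-TEAD genes were called; with ordinary variances 4 YAP-TEAD genes and 3 injury signals; with a pseudocount of 0.1 or the TPM 7 osteopontin and CD24 receptors. A fold limit of 2 left 3 keratin and desmosome, 5 tubulin, 2 Notch, 4 YAP-TEAD, 1 receptor, 2 injury and 4 aggregate partner calls. With a library left out, YAP-TEAD calls ran from 4 to 9, receptor calls from 3 to 6, injury calls from 3 to 7 and aggregate partner calls from 5 to 8. The causes were not tested, beyond fewer libraries and a stricter limit.

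Directions turned with median-ratio scaling for Notch2 (-0.20) and Yap1 (-0.086) in liver; for Spp1 in iWAT without Ctrl replicate 2 (0.78) or LKO replicate 1 (0.18), with a range of -0.65 to 0.78 over libraries left out; for Sox9 in hypothalamus without LKO replicate 3 (0.015), with a range of -0.19 to 0.015; and for Tubb6 in hypothalamus from the TPM (0.018) and without any 1 of Ctrl replicates 2 and 3 and LKO replicates 1 and 2, with a range of -0.0396 to 0.022 over libraries left out. No member was called outside liver under any alternative run.

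Whether the replicate numbers pair the samples was not settled. Same-numbered Ctrl and LKO livers had correlations of deviations of 0.15, 0.03 and 0.04. In iWAT these were 0.30, -0.12 and 0.20, in GM 0.35, 0.05 and 0.16, and in hypothalamus -0.13, 0.14 and 0.09. With the replicate block 3031 liver genes were called, and the counts of the 8 lists stayed within 1.5 times of those given, while the call of Egfr was lost (adjusted p = 0.076). Transcripts that did not reach 1 FPKM in 3 or more liver libraries, such as Cftr and Sctr, were left out of the main fit by the filter. Without the filter all 26 other bile duct markers entered the fit, and 8 were called higher.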
